A study of Mus musculus with 4 samples.

Results

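Egr1, Egr2, Egr3, Fos, Fosb, Fosl1, Jun, Junb, Nr4a1 and Atf3 are transcription factor genes grouped here as immediate-early factors. These 10 genes, of 18193 genes read by the array, were chosen from signals of the same 4 arrays described here, and every probe set annotated to a listed symbol alone was taken. All 10 genes had such a probe set, 14 in all, with 4 genes read by more than 1. Because the genes were picked with the signals of these arrays known, their differences are descriptions and no test was applied to them.

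Mouse embryonic stem (ES) cells of strain E14.1 were grown as 4 cultures, and the RNA of each was read on 1 array. The groups were cells labelled null for Sall4 (delta/-, line KO1) on feeders, heterozygous cells (flox/-, line HET18) on feeders, null-labelled cells without feeders, and heterozygous cells without feeders. Feeders were blasticidin-resistant embryonic fibroblasts, and cultures without them stood on gelatin. All 4 cultures shared a blasticidin-resistance cassette targeted to Oct3/4, blasticidin selection and leukaemia inhibitory factor (LIF). Each genotype was 1 line, so line and genotype cannot be told apart. No group had a replicate, so the spread between cultures of a group is unknown, and having so few arrays limits how precise any value is. Sall4 itself gave a higher signal in cells labelled null. Its probe sets read 1452.4 and 218.8 in cells labelled null and 780.8 and 88.6 in heterozygous cells on feeders, and 1670.5 and 380.5 against 1126.5 and 147.2 without feeders. Which part of the gene was deleted, and whether the probe sets lie in it, is not given in the sources used here, so whether these signals check the labels is not known and each direction below goes by the labels.

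Immediate-early genes are transcribed within minutes of a stimulus such as serum or a growth factor, with no need for new protein, and their transcripts are short-lived. Kinases of the ERK pathway act on ternary complex factors bound with serum response factor (SRF), while CREB and other factors answer other signals. EGR proteins are zinc finger activators, FOS and JUN proteins pair to form the AP-1 factor, NR4A proteins are orphan nuclear receptors, and ATF3 is a stress-responsive partner of JUN proteins. In mouse ES cells ERK signalling, fed by FGF4, is a cue to leave the naive state, and Egr1 is one of its common readouts.

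Signals are linear MAS5 values. Folds and log2 differences were taken on log2(signal + 4.6), where 4.6 is the 25th percentile of all signals, an offset that draws the folds of weak signals towards 1. Of several probe sets for a gene, the one brightest on average in log2 over the arrays was used. A gene counted as different when the fold was at least 2 and the brighter array of the pair lay above 17.1, the median of all signals. The share of all 12485 tested genes that met this rule is given beside the first count of factors in each comparison.

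Most of the factors stood highest in 1 culture, the heterozygous cells on feeders. That array had the highest signal for 9 of the 10 genes and for 13 of the 14 probe sets, with Junb the exception. These genes were chosen with the signals known, and the share of all tested genes highest on that array was not counted. On feeders all 10 genes were lower in cells labelled null than in heterozygous cells, by 2.11-fold (Jun) to 37.5-fold (Egr3), where 2.1% of tested genes were at least 2-fold lower. Without feeders the order was turned: 9 of the 10 were higher in cells labelled null, by 1.05-fold (Egr2) to 2.34-fold (Fos), and Nr4a1 was 1.12-fold lower. Of the 9, 2 were at least 2-fold higher, beside 3.78% of tested genes. The median difference there over all tested genes was 0.00, and the share of them higher by any amount was not counted. In bulk RNA fewer expressing cells and less RNA per cell cannot be told apart, and the arrays of the feeder cultures also held strong fibroblast marker signals, given below.

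**Figure D1:**
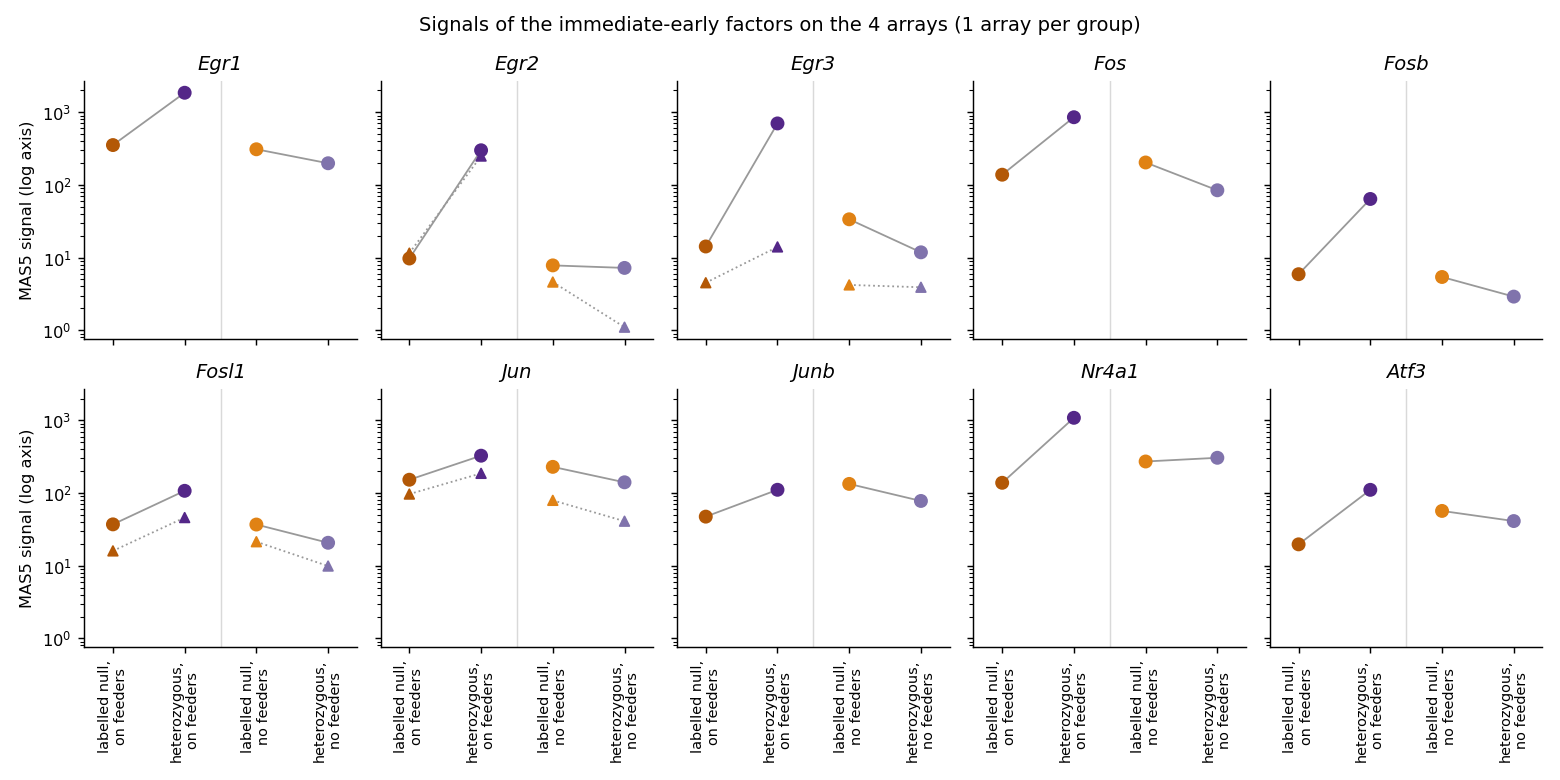
Signal of each factor (log axis) on the 4 arrays, with the null-labelled culture left of the heterozygous one in each feeder condition. Circles are the probe set that reads the gene, triangles a second probe set, and lines join arrays of the same feeder condition. The heterozygous culture on feeders stands highest for all genes but Junb.

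Egr1 (chr18:34861207-34864956, GRCm38), the founding member of the EGR family, is a zinc finger factor induced by serum and ERK signalling. On feeders its signal was 353.3 in cells labelled null and 1853.4 in heterozygous cells. Without feeders it was 309.1 in cells labelled null and 198.5 in heterozygous cells. The culture of heterozygous cells on feeders stood alone, while the other 3 arrays lay between 198.5 and 353.3. The log2 difference of null minus heterozygous was -2.38 on feeders, a 5.19-fold lower level, and 0.63 without feeders.

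Egr2 (chr10:67534469-67542188), also called Krox20 and known for hindbrain patterning and myelination, had weak signals in all cultures but that one. Its signal was 9.7 in cells labelled null and 299.5 in heterozygous cells on feeders, against 7.8 in cells labelled null and 7.2 in heterozygous cells without feeders. A second probe set read 11.5 and 249.3 for the same genotypes on feeders, and 4.6 and 1.1 without feeders. The 2 probe sets gave the same picture, with log2 differences of -4.41 and -3.98 on feeders. Without feeders both readings of Egr2 lay under 9.46, the signal of the filter on low values, in each genotype.

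Egr3 (chr14:70077317-70082613), an EGR factor studied in muscle spindles and lymphocytes, had the widest gap of the 10 by its brighter probe set. It read 14.2 in cells labelled null and 701.1 in heterozygous cells on feeders, and 33.6 in cells labelled null and 11.8 in heterozygous cells without feeders. The log2 difference was -5.23 on feeders and 1.22 without feeders. Among 12485 tested genes Egr3 ranked 1 and Egr2 ranked 2 from the lowest null minus heterozygous difference on feeders. These ranks are a description only, since the genes were chosen with the same signals known. Egr2 also passed the filter on low values only through the heterozygous array on feeders. The other Egr3 probe set was dim, at 4.5 in cells labelled null and 14.0 in heterozygous cells on feeders, a 2.04-fold lower level, so that the mean of both probe sets gave a log2 difference of -3.13. Without feeders that probe set read 4.2 in cells labelled null and 3.9 in heterozygous cells, a log2 difference of 0.05. By the mean of probe sets the gap of Egr2, at -4.19, was the wider.

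Fos (chr12:85473890-85477274), the prototype AP-1 subunit, read 138.1 in cells labelled null and 853.6 in heterozygous cells on feeders. Without feeders it read 203.3 in cells labelled null and 84.3 in heterozygous cells. It was therefore 6.01-fold lower in null-labelled cells on feeders and 2.34-fold higher in them without feeders. Fos and Egr3, each by its brighter or only probe set, were the factors whose genotypes differed at least 2-fold in both feeder conditions, in opposite directions. For Egr3 the log2 difference without feeders was 0.63 with the mean of its probe sets and 0.81 with the offset at the median, both under 2-fold.

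Fosb (chr7:19302696-19310118), a close relative of Fos, was seen above the filter signal on 1 array. It read 5.9 in cells labelled null and 64.0 in heterozygous cells on feeders, and 5.4 and 2.9 in the same genotypes without feeders. Its log2 difference on feeders was -2.71 and lay between -3.24 and -1.82 over the offsets, scalings and probe set choices tried, and 3 of its 4 signals were weak.

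Fosl1 (chr19:5447698-5455938) encodes FRA1, a FOS protein that lacks a strong activation domain and is itself a target of AP-1. Its signal was 37.1 in cells labelled null and 107.4 in heterozygous cells on feeders, and 36.9 in cells labelled null and 20.7 in heterozygous cells without feeders. Its second probe set read 16 and 46.0 on feeders and 21.4 and 9.9 without feeders, in the same order of genotypes. The 2 probe sets put the null-labelled cells 2.69-fold and 2.46-fold lower on feeders.

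Jun (chr4:95049036-95052222), the AP-1 partner of the FOS proteins, had smaller gaps. It read 152.6 in cells labelled null and 326.9 in heterozygous cells on feeders, and 229.5 in cells labelled null and 140.7 in heterozygous cells without feeders. A second probe set read 96.9 and 186.8 on feeders, and 79.4 and 41.0 without feeders. On feeders the log2 differences of the probe sets were -1.08 and -0.92, on either side of the 2-fold limit.

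Junb (chr8:84976909-84978748), a JUN protein that can restrain JUN activity, departed from the others. Its highest signal was 133.7, in cells labelled null without feeders, where heterozygous cells read 77.9. On feeders it read 47.4 in cells labelled null and 111.0 in heterozygous cells. The genotype difference on feeders had the same direction as that of the other factors, at -1.15, but the heterozygous level on feeders was 1.40-fold that without feeders.

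Nr4a1 (chr15:101253902-101274795), the orphan nuclear receptor also called Nur77, read 138.5 in cells labelled null and 1085.9 in heterozygous cells on feeders. Without feeders it read 272.1 in cells labelled null and 306.0 in heterozygous cells, and it was the 1 factor of the 10 that was lower in cells labelled null there too. It was 7.62-fold lower in cells labelled null on feeders. Atf3 (chr1:191170296-191183333), which encodes a stress-induced repressor of the ATF and CREB family, read 19.7 in cells labelled null and 110.8 in heterozygous cells on feeders. Without feeders its signals were 56.8 in cells labelled null and 41.2 in heterozygous cells. Its log2 difference was -2.25 on feeders and 0.42 without feeders.

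By the 2-fold rule 10 of the 10 factors were lower and 0 were higher in cells labelled null on feeders, where 262 of the 12485 tested genes were lower and 1.34% higher. The members' median difference was -2.48 on the log2 scale, against 0.01 over all tested genes. Without feeders 2 of the 10, Egr3 and Fos, were higher and 0 lower, beside 3.78% of tested genes higher and 2.97% lower. The medians there were 0.66 for the factors and 0.00 for all tested genes. Since earlier results of these arrays entered the choice of the genes, these counts are given as values and nothing is read from their size. All 10 genes passed the filter on low values, but Fosb and Egr2 did so through the heterozygous array on feeders.

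The signs of the 2 genotype differences were opposite for 9 of the 10 factors. Of all tested genes 39.9% had opposite signs. The difference on feeders minus the difference without feeders ran from -1.76 (Jun) to -6.45 (Egr3), with a median of -2.88, against 0.00 over all tested genes. With 1 array in each of the 4 groups, this difference of differences has no error of its own and was not tested.

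**Figure D2:**
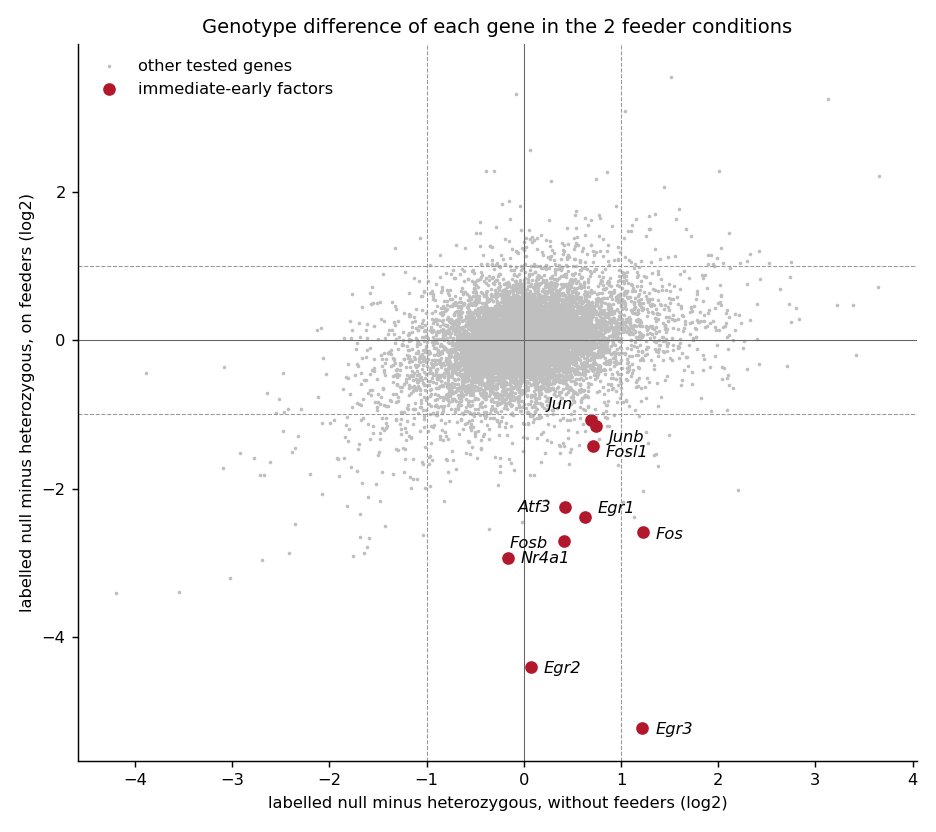
Null minus heterozygous log2 difference of each tested gene without feeders (horizontal) and on feeders (vertical). The 10 factors (red) lie between -1.08 and -5.23 on the vertical axis and between -0.17 and 1.23 on the horizontal one, and dashed lines mark 2-fold.

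Cell type markers on the same arrays bear on what the cultures held. Embryonic fibroblast markers, 28 genes, summed to a signal of 29127 in cells labelled null and 21726 in heterozygous cells on feeders, and to 3857 and 1720.5 without feeders, with 0 markers at a signal of 0 on any array. On feeders 26 of the 28 were higher in cells labelled null than in heterozygous cells, the opposite direction from the 10 factors. Without feeders 23 of the 28 were higher in cells labelled null, the same direction as 9 of the factors. The share of all tested genes higher by any amount was not counted, and their median differences were 0.01 on feeders and 0.00 without feeders. Col3a1 read 243.7 in cells labelled null and 19.2 in heterozygous cells without feeders, and its gap stood with those of Col1a1, Twist2 and Lum at log2 differences of 3.38, 2.73, 2.29 and 1.89. The part of fibroblast RNA in the factors' differences was not tested. ES cell markers, 14 genes, summed to 27656 in null-labelled and 29026 in heterozygous cells on feeders, and to 25410 and 30148 without feeders. By the 2-fold rule 0 of them were apart between genotypes. Of all tested genes 1.34% were higher and 2.1% lower on feeders, and 3.78% and 2.97% without feeders. Utf1, Fbxo15, Esrrb and Nanog were the markers furthest apart in the mean of both feeder conditions. Their log2 differences were -0.43, -0.63, -0.35 and -0.57 on feeders. Most of the list went the other way there, with 9 of the 14 higher in cells labelled null, 5 lower and a median of 0.05. Without feeders 1 was higher and 13 were lower, with a median of -0.29. Macrophage and blood markers summed to between 232.6 and 368.3 on the 4 arrays. Cd68 and Adgre1 led these in the mean of both feeder conditions, with log2 differences of -0.77 and 0.96 on feeders and -0.64 and -0.64 without feeders. Adgre1 thus changed sign, on dim signals of 10.9 to 29.9. Of the 5 markers tested, 4 were lower in cells labelled null on feeders and 1, Adgre1, was higher.

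The feeder comparison used the same arrays in other pairs, so the low null-labelled level on feeders and the high heterozygous level on feeders are not separate pieces of evidence. In cells labelled null, growth on feeders went with 3 of the 10 factors at least 2-fold lower and 0 higher, where 2.31% of tested genes were lower and 6.3% higher. The 3 were Junb, Atf3 and Egr3, with log2 differences of -1.41, -1.34 and -1.02, and Nr4a1 lay just short of the limit at -0.95. Egr3 stood at -0.49 with the mean of its probe sets and at -0.70 with the offset at the median, and the count was 2 in either setting. Egr1, Egr2, Fosb and Fosl1 differed by 0.21 or less by their brighter or only probe set. The second probe sets of Egr2 and Fosl1 stood at 0.81 and -0.34, that of Egr2 on weak signals of 4.6 without feeders and 11.5 on feeders. In heterozygous cells 9 of the 10 were at least 2-fold higher on feeders and 0 lower, beside 7.8% of tested genes higher and 1.64% lower. Egr3 was 43.0-fold, Egr2 25.8-fold, Fos 9.65-fold, Egr1 9.15-fold and Fosb 9.15-fold higher on feeders, with Junb the tenth at 1.40-fold. The sizes and order of the largest of these depend on the processing. On the log2 scale Egr3 stood at 5.43, but at 3.28 with the mean of its probe sets. Egr2 stood at 4.69 and ran from 3.70 to 5.20 over the settings tried, and Fosb at 3.19 ran from 2.02 to 4.06, with signals of 7.2 and 2.9 without feeders.

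**Figure D3:**
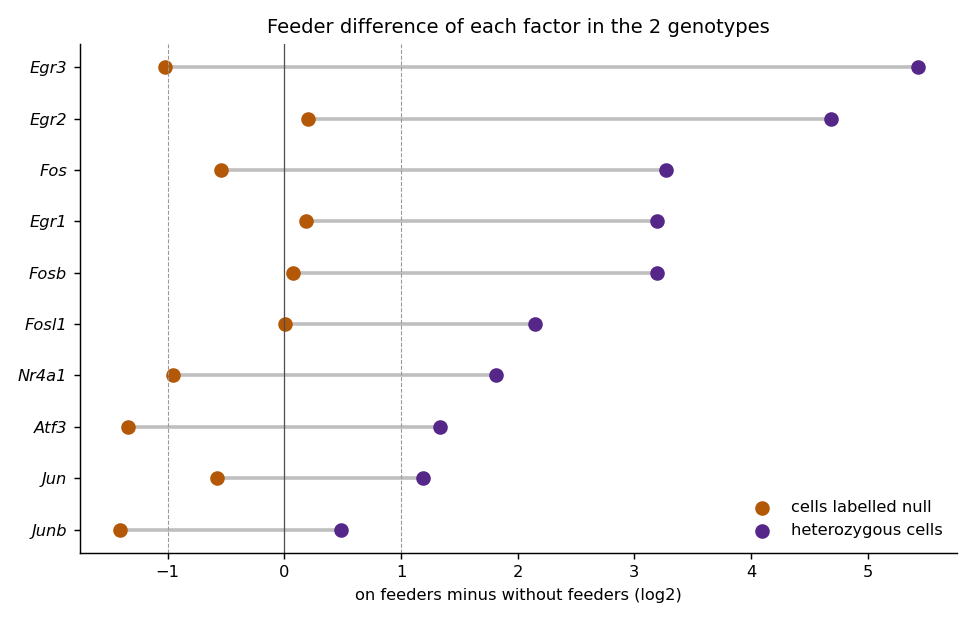
On-feeder minus feeder-free log2 difference of each factor in cells labelled null and in heterozygous cells, ordered by the heterozygous value. Null-labelled values run from -1.41 to 0.21 and heterozygous values from 0.49 to 5.43, with dashed lines at 2-fold.

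A further rule, added after the signals were seen, asked which genes stood at least 2-fold above each of the other 3 arrays on the heterozygous array with feeders. It held for 41 of the tested genes, 0.328%, and for 7 of the 10 factors: Egr1, Egr2, Egr3, Fos, Fosb, Fosl1 and Nr4a1. Since the factors were chosen with these signals known, nothing is read from this count or from the order below. Egr2 and Fosb also passed the filter on low values only through the heterozygous array with feeders. In the order of the gap to the next array, Egr2, Egr3 and Fosb came first, at 21.3-fold, 18.5-fold and 6.53-fold, and 6 of the first 10 genes were factors of this group. This order holds for the offset of 4.6: the next array read 9.7 for Egr2 and 5.9 for Fosb, near or under the filter signal of 9.46. For Egr2, Egr1 and Fosb the next array was the null-labelled one on feeders. With the offset at the median their log2 differences between genotypes on feeders were -3.56, -2.34 and -1.82, so that Fosb came after Egr1. For Egr3 the next array was the null-labelled one without feeders, and its gap to that array was not taken at this offset. Atf3 at 1.88-fold and Jun at 1.42-fold lay under the limit. The same rule turned to the other arrays found 0 of the 10 factors on each, out of 34 genes on the null-labelled array with feeders, 63 on the null-labelled array without feeders and 14 on the heterozygous array without feeders.

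Genes of related factors and cofactors formed a list of 14. Of the 11 that passed the filter on low values, 1 was lower and 0 higher in cells labelled null on feeders by the 2-fold rule, and 2 were higher and 0 lower without feeders. Of all tested genes 2.1% were lower on feeders and 3.78% were higher without feeders. The list medians were -0.30 on feeders and 0.37 without feeders. Nr4a2, a relative of Nr4a1 known for dopamine neurons, read 12.7 in cells labelled null and 31.9 in heterozygous cells on feeders, against 10 and 6.7 for the same genotypes without feeders. Fosl2, which encodes FRA2, read 223.8 in cells labelled null and 292.9 in heterozygous cells on feeders. Without feeders it read 296.8 in cells labelled null and 56.8 in heterozygous cells, so that the heterozygous culture without feeders was the low one. Nab2, an EGR target that represses EGR proteins, read 76.8 and 91.8 in null-labelled and heterozygous cells on feeders, and 228.0 and 77.5 without feeders. Its relative Nab1 read 156.7 and 126.6 on feeders and 193.6 and 103.5 without feeders. Fosl2, Nab2 and Nab1 thus had a higher null-labelled level without feeders, as 9 of the 10 factors did, while on feeders their genotypes were less than 2-fold apart.

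A list of kinases and factors upstream of the response had 15 genes measured. Of these, 0 were at least 2-fold apart on feeders, and 2 were higher without feeders, with medians of -0.03 and 0.13. Among all tested genes 1.34% were higher and 2.1% lower on feeders, and 3.78% were higher without feeders. Srf itself read 88.7 in cells labelled null and 177.1 in heterozygous cells on feeders, a log2 difference of -0.96, and 154.7 and 151.4 without feeders. Elk3, a ternary complex factor, read 217.4 and 168.9 in null-labelled and heterozygous cells on feeders, and 184.0 and 67.6 without feeders. Both Elk3 readings were higher in cells labelled null. Rps6ka3, an ERK-activated kinase, read 201.1 and 174.9 on feeders and 338.8 and 120.6 without feeders. Mrtfb, a coactivator of SRF, had log2 differences of 0.08 on feeders and 0.68 without feeders. Activity of kinases is not measured by transcript levels.

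Among 39 tested genes of a wider immediate-early list, 8 were lower and 0 higher in cells labelled null on feeders, where 2.1% of all tested genes were lower. Without feeders 8 were higher and 0 lower, where 3.78% of all tested genes were higher. The medians were -0.51 on feeders and 0.32 without feeders. The 8 lower ones on feeders were Dusp5, Ptgs2, Ccn2, Ccn1, Btg2, Dusp1, Ier5 and Zfp36. Dusp1, a phosphatase that switches off MAP kinases, read 424.9 in cells labelled null and 1104.0 in heterozygous cells on feeders, against 766.9 and 629.6 without feeders. Zfp36, which encodes the RNA-destabilising protein tristetraprolin, read 78.7 and 189.7 on feeders, and 165.2 and 104.9 without feeders. For these genes, as for most of the 10 factors, the genotypes stood in opposite order in the feeder conditions. Ptgs2, the inducible cyclooxygenase, read 180.5 and 744.3 on feeders, and 230.3 and 46.4 without feeders. Dusp5, a nuclear ERK phosphatase, was highest in cells labelled null without feeders, with 24.7 in cells labelled null and 128.4 in heterozygous cells on feeders, and 242.5 and 117.0 without feeders. These 4 were singled out after their values were seen. The rule for named genes took Nfil3, Gadd45b, Gadd45a and Ccl2, which had log2 differences on feeders of -0.10, -0.88, -0.73 and 0.11, and without feeders of 2.25, -0.82, -0.54 and 1.14.

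**Figure D4:**
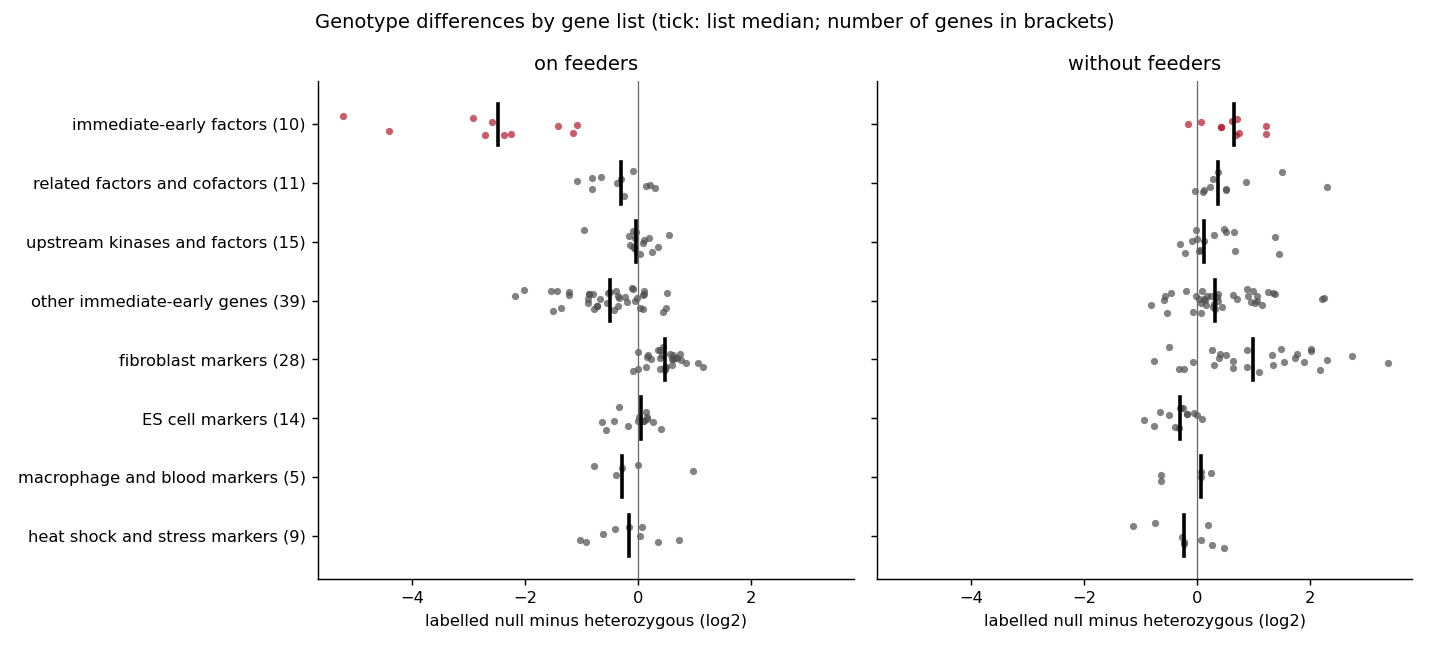
Null minus heterozygous log2 differences of the factors (red) and of other gene lists, on feeders (left) and without feeders (right). Each point is a gene, the tick is the list median and brackets give the number of genes. The factors have a median of -2.48 on feeders and 0.66 without feeders, and the fibroblast markers 0.47 and 0.99.

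Genes of heat shock and amino acid stress were a further list. Of 9 tested genes, 1 was lower on feeders and 1 lower without feeders in cells labelled null, with medians of -0.16 and -0.22. The shares of all tested genes that were lower were 2.1% on feeders and 2.97% without feeders. Trib3, Chac1, Sesn2 and Ddit3 had log2 differences of -0.92, -0.62, -1.03 and 0.73 on feeders. Atf3, which this stress pathway can also induce, was higher on feeders in heterozygous cells and lower on feeders in cells labelled null. Trib3 and Chac1 were higher on feeders in both genotypes, by log2 values of 1.75 and 2.48 in cells labelled null and 1.54 and 2.35 in heterozygous cells.

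Other properties of the arrays varied little. Median signals were 18.0 in cells labelled null and 17.1 in heterozygous cells on feeders, and 17.0 and 16.1 without feeders. The 3' over 5' ratio of actin, a measure of RNA integrity, lay between 1.22 and 1.29 over the arrays, and that of Gapdh between 0.758 and 0.794. Pou5f1, the Oct3/4 gene whose locus carried the resistance cassette, read 1187.4 and 1112.1 on feeders and 977.0 and 1284.2 without feeders.

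The genes whose signals lay nearest to the factors' median profile were sought over the 4 arrays, by root mean square distance of log2 values centred on each gene's mean. The median profile stood at -0.71 in cells labelled null and 1.83 in heterozygous cells on feeders, and at -0.24 and -0.96 without feeders. The 10 nearest other genes were Nipal1, Ccn1, Errfi1, Padi2, 4933402E13Rik, Mir22hg, Nr4a2, Ier5, Ccn2 and Dleu7, at distances of 0.32 to 0.57. For comparison, the factors lay between 0.21 (Fos) and 1.10 (Egr3) from it. Nipal1, a magnesium transporter gene, read 15.7 in cells labelled null and 59.9 in heterozygous cells on feeders, and 15.3 and 9.8 without feeders. Errfi1, a feedback inhibitor of the EGF receptor, read 391.8 and 1618.0 on feeders and 995.9 and 424.4 without feeders. Ccn1 and Ccn2, matricellular growth regulators, read 558.9 and 1589.7, and 754.6 and 2214.1, in null-labelled and heterozygous cells on feeders. Over 4 arrays many genes can share a profile.

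Promoter sequence was available from RefSeq (GRCm38.p6) for 7 of the 10 factors, as windows of 250 bases before to 50 after each annotated start, 11 windows in all since Egr2 has 5 starts. The motifs searched on both strands were the CArG box of SRF, given by name, the CRE of CREB and ATF proteins (TGACGTCA), the AP-1 site (TGANTCA with C or G at N), the EGR site (GCGNGGGCG with T or G at N) and TATAAA. Each of the windows held at most 1 match, so matches did not overlap. The stretches below are the 150 bases before the start, 5′ to 3′ on the gene's strand, with the match in capitals. They are shown because their genes stood highest in heterozygous cells on feeders and each holds one of the motifs. The Egr2 stretches are chr10:67537719-67537868 and chr10:67537416-67537565 (+ strand), with a CArG box each. Those with an EGR site are chr7:19310046-19310195 (- strand) for Fosb and chr15:101266696-101266845 (+ strand) for Nr4a1, and the one with TATAAA is chr12:85473740-85473889 (+ strand) for Fos.
Egr2, downstream start: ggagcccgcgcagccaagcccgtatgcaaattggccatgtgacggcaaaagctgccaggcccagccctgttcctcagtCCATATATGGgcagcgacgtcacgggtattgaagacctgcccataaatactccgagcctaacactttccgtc
Egr2, upstream start: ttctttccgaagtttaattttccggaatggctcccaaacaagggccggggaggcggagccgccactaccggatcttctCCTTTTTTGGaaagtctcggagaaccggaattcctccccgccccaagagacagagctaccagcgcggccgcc
Fosb: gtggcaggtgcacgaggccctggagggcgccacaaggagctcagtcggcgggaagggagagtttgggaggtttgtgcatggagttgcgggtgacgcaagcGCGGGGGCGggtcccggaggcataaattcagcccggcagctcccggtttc
Nr4a1: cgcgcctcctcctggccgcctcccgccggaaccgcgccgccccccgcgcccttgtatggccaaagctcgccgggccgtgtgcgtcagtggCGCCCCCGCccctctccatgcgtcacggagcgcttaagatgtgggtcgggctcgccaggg
Fos: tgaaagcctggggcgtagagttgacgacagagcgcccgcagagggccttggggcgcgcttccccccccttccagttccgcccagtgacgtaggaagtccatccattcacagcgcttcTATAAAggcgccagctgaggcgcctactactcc

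Of the 5 Egr2 windows 4 held a CArG box, beginning at position -72, -72, -73 or -133 from the start. Of these, 3 windows overlap and hold the same box, and the remaining one, at an upstream start, holds another. A CArG box was in 1.63% of the 32851 windows in the table. The EGR site was found at -50 in Fosb and at -60, on the opposite strand, in Nr4a1, and 3.47% of all windows held it. The factors Fos and Junb held TATAAA, at -33 and 1, as did 13.6% of all windows. The CRE and the AP-1 site, in 1.79% and 5.2% of all windows, had 0 matches in the 11 windows, and Jun and Atf3 held 0 matches of any motif. A match is a match of letters alone, and a window without one says only that those letters are not in it.

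**Figure D5:**
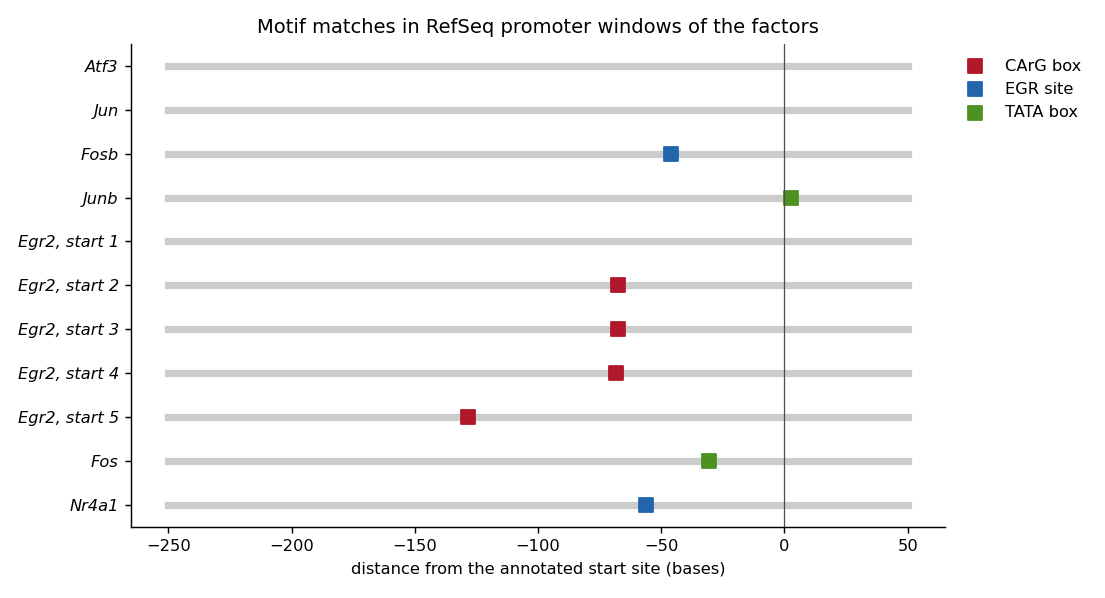
Motif matches (squares) in the 11 RefSeq promoter windows of 7 factors, by distance in bases from the annotated start site, with the 5 Egr2 starts on rows of their own. CArG boxes appear in 4 Egr2 windows, EGR sites in Fosb and Nr4a1, and TATAAA in Fos and Junb.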

How the data were processed

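The 4 samples were 1 Affymetrix array each, with 1 array per group. The values are the deposited MAS5 intensity signals on a linear scale (the authors' processing, per the submitters' processing notes, version not given), with no detection calls. Of 45101 probe sets, 64 controls were left out, 34945 had 1 symbol in the platform annotation, 932 several and 9160 none listed, and probe sets with several or none were not used. They named 18193 genes.

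With pandas 2.3.3 and numpy 2.4.6 signals were taken as log2(signal + 4.6). A gene was read by its probe set of highest mean log2, and 12485 genes with a mean at or above the 40th percentile of probe sets (signal 9.46) formed the background. No test was run, since each group had 1 array. Members and lists were chosen with earlier results of these data known. Of list members, up to 4 per list with the largest mean genotype difference were named, with the 10 genes nearest in profile. Older symbols were updated through RefSeq. Offset, scaling, probe set, threshold and filter were varied.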

Additional observations from a re-analysis of the deposited data

Results flagged for a closer look

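For 9 of the 10 factors the null minus heterozygous difference had 1 sign on feeders and the other sign without feeders, in 1 array against 1 each. The difference between the conditions was not tested. On the log2 scale, the value on feeders minus that without feeders was -6.45 for Egr3, -4.48 for Egr2, -3.81 for Fos, -3.12 for Fosb and -3.0 for Egr1. It was -2.67 for Atf3, -2.14 for Fosl1, -1.90 for Junb and -1.76 for Jun. The Egr2 value without feeders was only 0.07, so its sign there carries little. Nr4a1 was lower in cells labelled null in both conditions.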

How the results depend on the processing

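No genotype or feeder difference of a factor past the 2-fold rule changed its sign under another offset, scaling or choice of probe sets. On feeders 10 of 10 factors differed between genotypes, 9 with the offset at the median (Junb at -0.99), 9 with the mean of probe sets (Jun just short of 2-fold) and 7 at 3-fold. Without feeders the count of 2 became 1 with the offset at the median, 1 with the mean of probe sets and 0 at 3-fold. With the offset at the median and with the mean of probe sets, Egr3 was the factor lost. The 3 factors apart by feeders in cells labelled null became 2 with the offset at the median and 2 with the mean of probe sets. They became 4 with each array centred on its median, and 0 at 3-fold. The background counts of 429 and 843 genes between genotypes, on and without feeders, and of 1074 and 1179 by feeders, in cells labelled null and heterozygous cells, became 211, 462, 681 and 783 with the offset at the median. They were 111, 240, 426 and 522 at 3-fold, and 225, 534, 639 and 741 with a filter at the 60th percentile, which leaves fewer genes. Over these settings the difference on feeders ran from -5.53 to -3.13 for Egr3 and from -4.81 to -3.56 for Egr2. No array could be left out, as each group has 1. No paired analysis was possible because no group has replicates. The choice of probe set for Egr3, and weak signals of Fosb and Egr2 outside the heterozygous culture on feeders, limit their folds.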

Other observations

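Some other genes also stood highest on the heterozygous array with feeders, and were singled out after their values were seen. Ereg, which encodes the EGF receptor ligand epiregulin, read 55.9 in cells labelled null and 309.7 in heterozygous cells on feeders, and 13.0 and 3.4 without feeders. Il6, an inflammatory cytokine, read 24.2 and 96.8 on feeders and 0.3 and 0.1 without feeders. Rgs16, a regulator of G protein signalling, read 120.0 and 350.4 on feeders and 45 and 31.2 without feeders. Nr4a3, a relative of Nr4a1 on the list of related factors but under the filter on low values, read 1.2 and 46.8 on feeders and 6.3 and 0.8 without feeders.

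The early genes Dusp6 and Myc were lower on feeders in both genotypes, whereas all 10 factors were higher on feeders in heterozygous cells. In cells labelled null 6 of the 10 factors were lower on feeders too. Dusp6, an ERK phosphatase, read 459.1 on feeders and 1288.9 without feeders in cells labelled null, and 591.2 and 945.5 in heterozygous cells. Myc read 115.9 and 392.2 in cells labelled null, and 194.3 and 361.6 in heterozygous cells, in the same order.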
